A study of Mus musculus with 9 samples.

Results

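The genes described here encode the machinery that sorts membrane proteins in the endosome: 30 genes of the Commander complex, retromer, the sorting nexins, the WASH complex, Tmem9 and Rab7. They were taken by symbol from the 57180 rows of a table of raw read counts, 1 row per Ensembl gene, with GENCODE M21 pairing the IDs and the names. The set was chosen by function, but with low day 3 levels of Vps35l, Commd4 and Tmem9 in these same libraries already known, so every day 3 value of these genes is a description and supports nothing. All 30 genes matched a row, and all 30 passed the filter on low counts that left 13405 genes to test.

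The libraries are mRNA-seq of Lgr5-GFP+ cells sorted from the small intestine. The knockout mice were Lgr5-EGFP-CreERT2; Kansl1 f/f, in which an Lgr5-driven, tamoxifen-activated Cre removes Kansl1, a scaffold subunit of the NSL histone acetyltransferase complex. There were 3 libraries from mice given tamoxifen daily for 3 days (KO day 3), 3 from mice given it for 4 days (KO day 4) and 3 from mice given corn oil and labelled KANSL1-WT (control). Whether the control mice also carry the Kansl1 f/f alleles, without the drug, is not settled by the labels, so the control contrast may include a difference in alleles. Knockout mice alone received tamoxifen, so the drug and the deletion cannot be told apart. The age of the mice and the number of mice behind a library are not given in the sources used here, so p-values measure the spread between libraries, which may be in part technical.

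Total counts were 12164479 to 17913787 in the controls, 8400458 to 21484679 at day 3 and 11174583 to 16943055 at day 4, and genes of the mitochondrial genome took 16.4% to 25.8%, 19.0% to 32.5% and 66.9% to 72.1% of them. Levels are in CPM, counts over a library size scaled by the trimmed mean of M-values (TMM), which was set from 0.40 to 0.50 at day 4 and from 1.44 to 1.83 in the controls. All directions below are relative to that scaling: on library size alone the median gene stood at -1.95 at day 4 and at -0.39 at day 3 (log2 against control), and every one of the 30 genes was then lower at day 4. Day 3 replicate 1 (correlation of log2 CPM with its group 0.937 and 0.941) and day 4 replicate 3 (0.897 and 0.903) stood apart, and the calls are also given without both. Kansl1 itself was at 4.46, 11.4 and 9.84 CPM in the controls, 2.81, 2.99 and 2.55 CPM at day 3 and 2.93, 5.09 and 8.96 CPM at day 4, so all day 3 libraries and 1 day 4 library lay below the controls (log2 fold change -1.62, SE 0.45, and -0.63, SE 0.46). By edgeR's quasi-likelihood test Kansl1 was called lower at neither time (adjusted p = 0.12 at day 3 and 0.345 at day 4). The counts cover the whole gene and not the deleted part alone, and directions at day 4 rest on the labels. The stem cell markers that define the label were present: all 19 had counts in each group, and together they held 19680 to 23690 CPM of nuclear counts in the controls, 13270 to 19180 at day 3 and 3177 to 8192 at day 4. Most of that sum was Olfm4 (217185, 261536 and 198259 counts in the controls, 35996, 23741 and 6868 at day 4). Of the 19, 7 were called lower and 0 higher at day 4, and the others were not called. Paneth cell markers (13 of 13 with counts in each group) held 21470 to 53600, 34380 to 53220 and 118800 to 157600. Mast cell markers (8, 14 and 14 of 15 with counts in any library) held 12.3 to 14.7, 40.1 to 259.2 and 576.9 to 1647, with Fcer1a and Ms4a2 at 0 counts in all 3 controls. Other immune markers (6, 12 and 7 of 13 with counts) held 4.15 to 8.06, 8.77 to 40.3 and 61.1 to 166.0. Most of the day 4 sum was Gzmb (134, 222 and 219 counts) and Lyz2 (124, 66 and 178). Cd3e, Cd3d, Cd79a, Ms4a1, Gzma and Nkg7 had 0 counts in each day 4 library. Goblet cell markers (8 of 8 in each group) held 1678 to 2093, 1743 to 2399 and 3005 to 5067, with 5 of the 8 called higher and 1 lower at day 4. The exception was Fcgbp, from 138, 316 and 169 TMM-scaled CPM in the controls to 72.8, 82.4 and 122 at day 4. Enteroendocrine markers (10 of 10) held 48.9 to 155.9, 104.6 to 182.1 and 395.2 to 608.0 CPM of nuclear counts. Tuft cell markers (8, 8 and 9 of 9) held 8.60 to 10.7, 13.7 to 25.4 and 150.3 to 381.0. Stromal markers (6, 7 and 7 of 8) held 4.50 to 8.51, 9.95 to 17.2 and 29.4 to 48.5, with 1 of the 8 called higher at day 4. Most of the day 4 stromal sum was Vim (144, 114 and 143 counts). Pdgfrb went the other way, from 36, 22 and 25 counts in the controls to 0, 7 and 0 at day 4. General epithelial markers (8 of 8) held 8160 to 8509, 7017 to 7835 and 6947 to 7280, but single genes moved in opposite directions. At day 4, 2 of the 8 were called higher and 3 lower. In TMM-scaled CPM, Epcam went from 619, 600 and 541 in the controls to 323, 299 and 234 at day 4. Krt18 went from 459, 361 and 332 to 1168, 1208 and 1473. In sorted bulk samples, fewer cells of a type and less RNA per cell cannot be told apart, and the part of these shifts in the results below was not tested.

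Proteins that reach the endosome are either sent to the lysosome or recovered to the cell surface or the Golgi. Retromer, a trimer of VPS35, a VPS26 and VPS29, recovers cargo together with sorting nexins, which bind the endosomal lipid PI3P. Commander does a parallel job: VPS35L, VPS26C and VPS29 form retriever, which takes its cargo from SNX17, and the COMMD proteins with CCDC22 and CCDC93 form the CCC complex. WASH activates Arp2/3 to build actin patches on the same membranes, and RAB7 marks late endosomes and recruits retromer. TMEM9 is an endosomal and lysosomal membrane protein that partners with CLC chloride-proton exchangers. In epithelia these routes return nutrient carriers, integrins and receptors to the plasma membrane, and retromer recycles Wntless, the carrier of Wnt ligands.

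At day 4, 9 of the 30 genes fell and 0 rose against control by edgeR's quasi-likelihood test (Benjamini-Hochberg adjusted p under 0.05 over all genes tested). Of all 13405 genes tested, 11.5% were called lower and 11.1% higher, beside which the 9 of 30 are to be read; the difference was not tested. The 9 were Commd2, Commd4, Commd6, Commd8 and Vps35l of Commander, Vps29, which is shared by retromer and retriever, the sorting nexin Snx1, the WASH subunit Washc3, and Tmem9. Among them Commd4, Vps35l and Tmem9 are the genes that brought the set into view at day 3 against the same controls, so their day 4 calls are not independent of that choice. Beside the 0 that rose, 1 gene was higher at an unadjusted p under 0.05, and DESeq2 and limma voom also called 0 higher. The median log2 fold change of the 30 genes was -0.48 (range -2.60 to 0.58) against -0.06 over all genes. Every day 4 library lay below every control for 15 of the 30, a pattern seen in 26.4% of all genes tested, and above every control for 3, seen in 20.6%. The mitochondrial share and the sums of Paneth, mast, other immune, goblet, enteroendocrine and tuft markers were higher in the same day 4 libraries. The stromal sum, mostly Vim, was also higher there, and the stem cell marker sum, mostly Olfm4, was lower. The part of these shifts in the calls was not tested. The count of 9 was 12 without both libraries that stood apart, and leaving out 1 library at a time gave 5 (without control replicate 3) to 12 (without day 3 replicate 1).

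At day 3, the contrast through which the set was selected, 3 of the 30 genes lay past the same edgeR threshold, all lower (0.298% of all genes tested). They are Commd4, Vps35l and Tmem9, the genes that brought the set into view, so the choice fixed the count and nothing is read from it. The count was 0 in edgeR without any 1 control or day 3 replicate 2 or 3 (7 to 10 genes at an unadjusted p under 0.05) and 1 with a replicate block. The median was -0.28 (range -2.76 to 0.27) against -0.02 over all genes, and every day 3 library lay below every control for 12 genes, a pattern seen in 18% of all genes tested. Both contrasts use the same control libraries, so the values at the 2 times are given side by side and are not independent. The map of levels by gene and library and the plot of fold changes show the whole set.

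**Figure D1:**
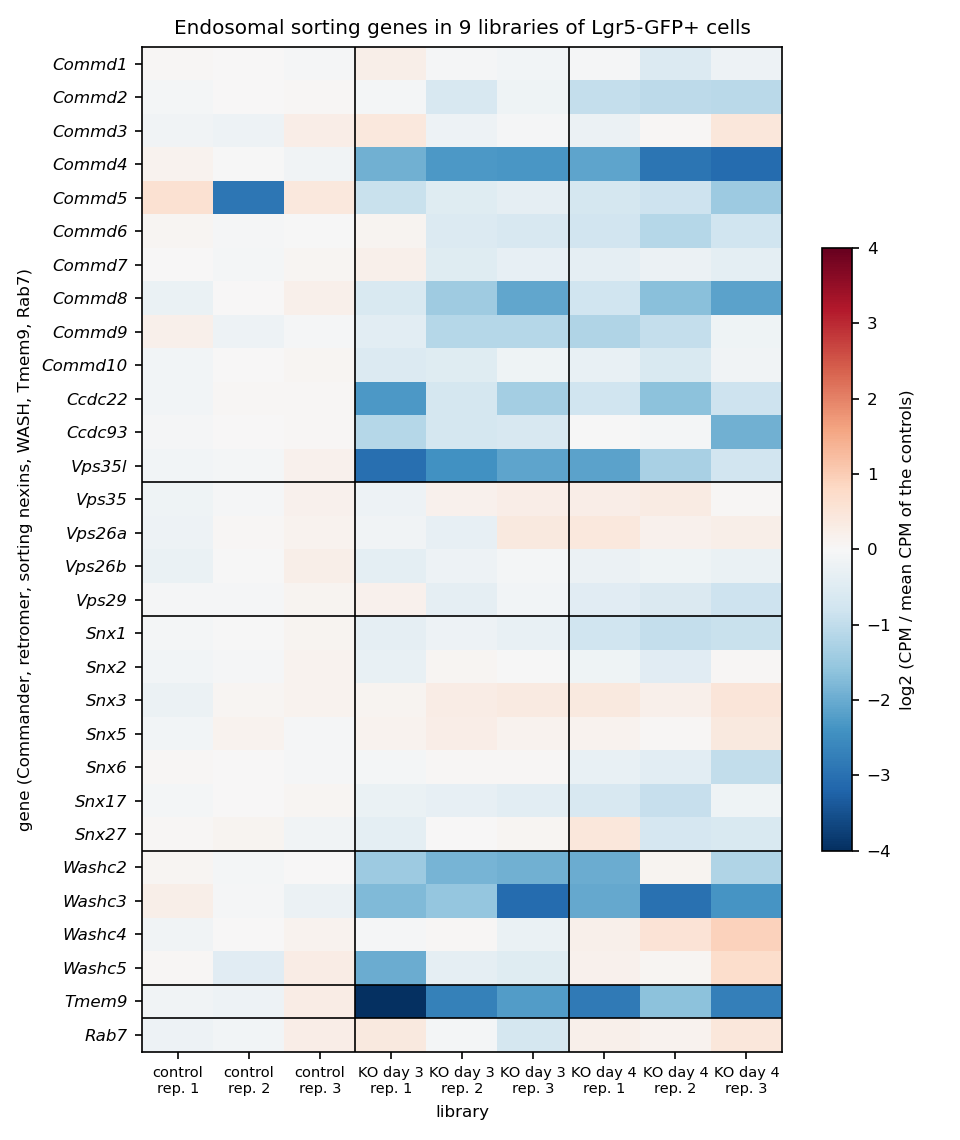
Level of each of the 30 genes (rows, ordered by complex, with lines between complexes) in each of the 9 libraries (columns), as log2 of its CPM over the mean CPM of the 3 controls. Commd4, Washc3 and Tmem9 are blue (lower) in all 6 knockout columns, Vps35l is darkest at day 3 and paler in day 4 replicates 2 and 3, Snx1 is light blue at day 4, the other retromer and sorting nexin rows are mostly paler, and Commd5 is dark in a single control library; a value past 4 in size takes the end colour.

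**Figure D2:**
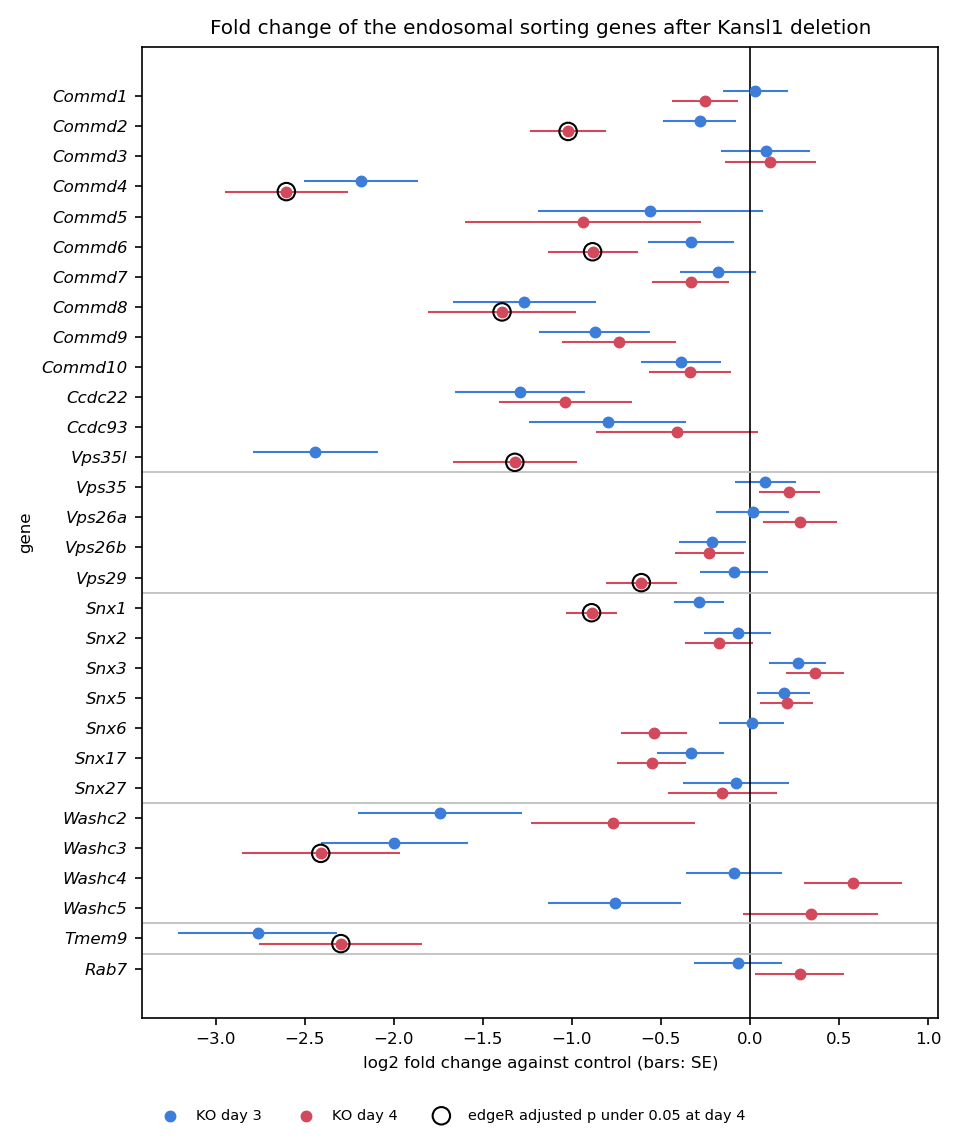
Log2 fold change against control (x axis) of the 30 genes (y axis) at day 3 (blue) and day 4 (red), with bars of 1 SE from the edgeR fit and a ring where the adjusted p at day 4 is under 0.05. The 9 ringed genes all lie left of 0; the day 3 values chose the set and carry no ring.

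By complex, Commander held 5 of the 9 calls among its 13 genes (38.5%, where 11.5% of all genes tested were called lower), and 2 of the 5, Vps35l and Commd4, are genes that brought the set into view. It had a median of -0.88 at day 4 and -0.56 at day 3, and 12 of the 13 lay below 0 at day 4. Retromer had 1 call among 4 genes and a median of -0.003 at day 4. That call is Vps29, which retriever of Commander shares and which is counted here under retromer alone. The sorting nexins had 1 call among 7 and a median of -0.17. WASH had 1 call among 4, with a median of -1.25 at day 3 and -0.21 at day 4. These medians describe small lists, and the differences between complexes were not tested.

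The 9 called genes had a median exon length of 4339 bases and a median control level of 17.7 CPM (12.7 to 69.4). The other 21 had 4177 bases and a higher median level of 23.3 CPM (5.05 to 80.7). Whether level or length had a part in the calls was not tested. Per kilobase of exon (all annotated exons merged), the most abundant gene in the controls was Snx3, at 34.2 ± 4.32 CPM per kb (SD, n = 3), followed by Rab7 at 23.9 ± 4.17, Snx5 at 19.3 ± 1.75, Snx17 at 18.7 ± 0.995 and Snx1 at 16.0 ± 1.08. At the low end stood Ccdc93 at 0.441 ± 0.0102, Washc4 at 1.14 ± 0.107, Washc2 at 1.17 ± 0.0656 and Vps35l at 1.46 ± 0.164 CPM per kb. The ranges of mean ± SD overlapped for Rab7 and Snx5, for Snx5 and Snx17 and for Washc4 and Washc2, but not for the other neighbours in this order.

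Commd4 (ENSMUSG00000032299, chr9:57155035-57158331, minus strand), one of the 10 COMMD subunits of the CCC ring, had the largest fall of the set at day 4. It stood at 14.7, 13.2 and 11.9 CPM in the controls, 3.50, 2.69 and 2.62 CPM at day 3 and 3.05, 1.75 and 1.57 CPM at day 4. All 6 knockout libraries lay far below the 3 controls, with no overlap at either time. Its mean was 13.3 ± 1.39 CPM in the controls, 2.94 ± 0.486 CPM at day 3 and 2.12 ± 0.807 CPM at day 4 (SD, n = 3), from 266 to 398 counts per control library and 7 to 26 per day 4 library. The fitted day 4 level was 16.5% of control (log2 fold change -2.60, SE 0.35, adjusted p = 0.000849), and the call was made under all 19 alternatives run. At day 3 the log2 fold change was -2.18. Reads of Commd4 per 100 reads of the other 9 COMMD genes in the same library were 8.63, 8.49 and 6.68 in the controls, 2.10, 2.24 and 2.06 at day 3 and 2.55, 1.63 and 1.24 at day 4, a ratio that no scaling between libraries can move. The ratio was lower in each knockout library than in each control (the ratios here were picked after the levels were seen and carry no test).

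The promoter of Commd4 is shown because it belongs to the gene with the largest fall; the 300 bases are the RefSeq window from 250 bases before to 50 after the start, GRCm38.p6, chr9:57158250-57158549, minus strand, read 5′ to 3′ with the start at base 251. Capitals mark the letters of 2 of the motifs searched, CCAAT (read as ATTGG on this strand, at bases 165, 258 and 286) and CCGGAAG (at base 242).
Commd4: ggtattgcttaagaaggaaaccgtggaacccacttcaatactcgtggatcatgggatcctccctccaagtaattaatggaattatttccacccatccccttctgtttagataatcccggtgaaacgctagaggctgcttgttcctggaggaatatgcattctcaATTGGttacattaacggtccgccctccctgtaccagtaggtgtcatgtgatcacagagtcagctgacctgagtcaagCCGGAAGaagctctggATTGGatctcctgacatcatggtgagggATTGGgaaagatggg
The window held 7 CG dinucleotides, and CCAAT occurred 3 times, 2 of them after the start site.

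Commd2 (ENSMUSG00000036513, chr3:57644349-57651715, minus strand) and Commd6 (ENSMUSG00000075486, chr14:101632981-101640686, minus strand), further subunits of the ring, were called lower at day 4. Commd2 stood at 20.7, 22.2 and 22.8 CPM in the controls, 20.8, 14.0 and 19.4 CPM at day 3 and 11.4, 10.7 and 10.3 CPM at day 4. Day 4 libraries lay below all others, and 1 day 3 library lay inside the control range. The fitted day 4 level was 49.3% of control (log2 fold change -1.02, SE 0.22, adjusted p = 0.00742; called under all 19 alternatives), with a day 3 log2 fold change of -0.28. Commd6 stood at 18.7, 17.1 and 17.4 CPM in the controls, 19.0, 12.2 and 11.3 CPM at day 3 and 10.4, 8.11 and 10.3 CPM at day 4. Its day 3 replicate 1 was above all controls while every day 4 library was below them. Commd6 fell to 54.2% of control at day 4 (log2 fold change -0.88, SE 0.25, adjusted p = 0.0286); without control replicate 1, 2 or 3, or day 4 replicate 2, the call was lost, with an adjusted p of up to 0.0884.

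Commd8 (ENSMUSG00000029213, chr5:72156575-72168189, minus strand) stood at 12.9, 15.9 and 18.2 CPM in the controls, 10.2, 5.85 and 3.72 CPM at day 3 and 9.03, 4.93 and 3.58 CPM at day 4. Knockout libraries lay below the controls at both times and spread widely among themselves. The fitted day 4 level was 38.1% of control (log2 fold change -1.39, SE 0.42, adjusted p = 0.0344), but the call was lost without any 1 of the controls, day 3 replicate 2, or day 4 replicate 2 or 3, with an adjusted p of up to 0.103. The remaining COMMD genes gave log2 fold changes at day 4 of -0.25 (Commd1), 0.11 (Commd3), -0.33 (Commd7), -0.74 (Commd9) and -0.33 (Commd10), and none of the 5 was called (adjusted p 0.121 to 0.784). Gm28048, a same-strand protein-coding model over 4.95% of the exon bases of Commd1, fell on its own (log2 fold change -2.38, adjusted p = 0.0164), and with its counts added Commd1 gave -0.51 (SE 0.18, adjusted p = 0.0595), which also missed the threshold. Commd9 was lower than every control in each day 3 library, at 8.52 ± 2.59 CPM against 15.5 ± 2.20 CPM.

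Commd5 was not called as deposited, and its value differed when the counts of another gene model were added. GENCODE M21 places Gm49527, a protein-coding model on the same strand, over 932 of Commd5's exon bases (66.8%). Commd5 alone stood at 13.1, 1.16 and 11.4 CPM in the controls, 4.60, 6.07 and 6.63 CPM at day 3 and 5.27, 4.77 and 3.13 CPM at day 4, whereas Gm49527 held 10.3 CPM in control replicate 2, 0.494 CPM in control replicate 3 and at most 0.106 CPM in the other 7 libraries. The single low control of Commd5 was thus the library in which Gm49527 was high. Summed, the pair stood at 13.1, 11.5 and 11.9 CPM in the controls, 4.69, 6.07 and 6.73 CPM at day 3 and 5.27, 4.77 and 3.13 CPM at day 4, with every knockout library below every control. On the sum the day 4 log2 fold change was -1.45 (SE 0.29, adjusted p = 0.00612), against -0.94 (SE 0.66, adjusted p = 0.329) for Commd5 alone; adding the overlapping model was chosen after seeing the data. The stacked plot shows the levels of the 2 models side by side. How reads were assigned between them was not tested.

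**Figure D3:**
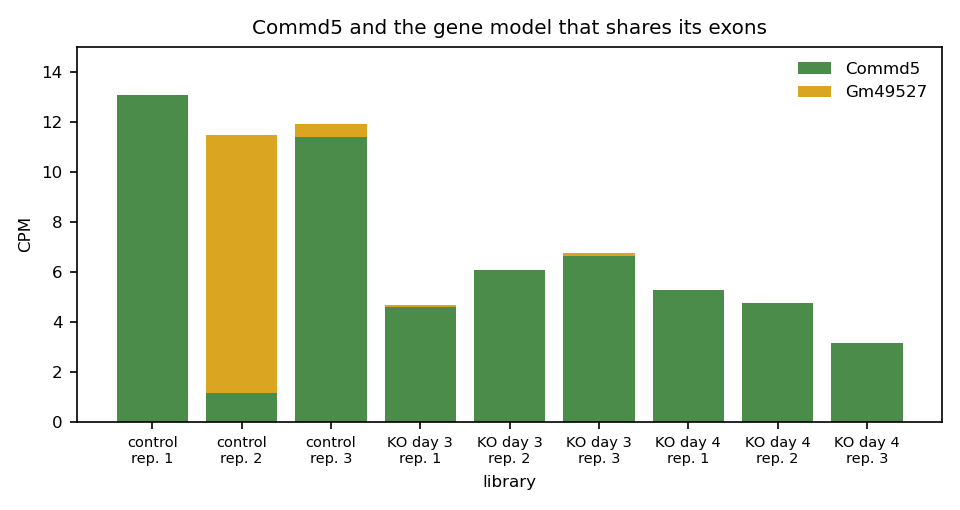
CPM (y axis) of Commd5 (green) and of Gm49527 (gold), the same-strand gene model that shares 66.8% of its exon bases, stacked in each of the 9 libraries (x axis). The 3 control bars reach 13.1, 11.5 and 11.9 CPM in sum although control replicate 2 is nearly all Gm49527, and the knockout bars reach 3.13 to 6.73 CPM.

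Ccdc22 (ENSMUSG00000031143, chrX:7593809-7605517, minus strand), the coiled-coil subunit that holds the COMMD ring to retriever, stood at 17.2, 19.2 and 19.2 CPM in the controls, 3.75, 11.5 and 7.23 CPM at day 3 and 10.7, 5.88 and 10.5 CPM at day 4. Every knockout library lay below every control. The day 4 difference missed the threshold (log2 fold change -1.04, SE 0.37, adjusted p = 0.0674), while DESeq2 and limma voom called it. A same-strand transcript model, Gm36995, covers 86.3% of its exon bases and held at most 2.47 CPM in any library. With its counts added, the day 4 log2 fold change was -0.99 (adjusted p = 0.0238), so Ccdc22, like Commd5, was called on the sum, and the count of called genes was then 11. Ccdc93, its partner, was a low gene (6 to 43 counts per day 4 library) at 5.05 ± 0.117 CPM, 2.88 ± 0.505 CPM and 3.72 ± 2.06 CPM in the 3 groups (SD, n = 3) and was not called (log2 fold change -0.41, SE 0.45, adjusted p = 0.546).

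Vps35l (ENSMUSG00000030982, chr7:118740226-118842966, plus strand), the scaffold of retriever, stood at 19.8, 20.2 and 24.1 CPM in the controls, 2.64, 3.99 and 5.0 CPM at day 3 and 4.80, 8.74 and 12.5 CPM at day 4. All 6 knockout libraries were below the controls, and the day 4 libraries reached from just under the highest day 3 library to 12.5 CPM. Vps35l was at 18.4% of control at day 3 and 40.0% at day 4 (log2 fold change -1.32, SE 0.35, adjusted p = 0.0202). The day 4 call was lost without control replicate 2 or 3 or without day 4 replicate 2, with an adjusted p of up to 0.0727. The day 4 against day 3 difference was 1.12 on the log2 scale; it is given with no test, since the low day 3 level is what brought the gene into view. Set against Vps35, the scaffold of retromer, the reads of Vps35l per 100 reads of Vps35 were 31.9, 29.9 and 30.6 in the controls, 4.38, 5.12 and 6.03 at day 3 and 5.81, 9.93 and 17.5 at day 4. Here too each knockout library was below each control, and day 4 replicate 3, one of the libraries that stood apart, was the highest of the knockouts. The gene shares 5.09% of its exon bases with Knop1 on the opposite strand, and since strand use in the counting is not given in the sources used here, some reads of either cannot be told apart; Knop1 moved the other way (day 4 log2 fold change 0.88, adjusted p = 0.0119).

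**Figure D4:**
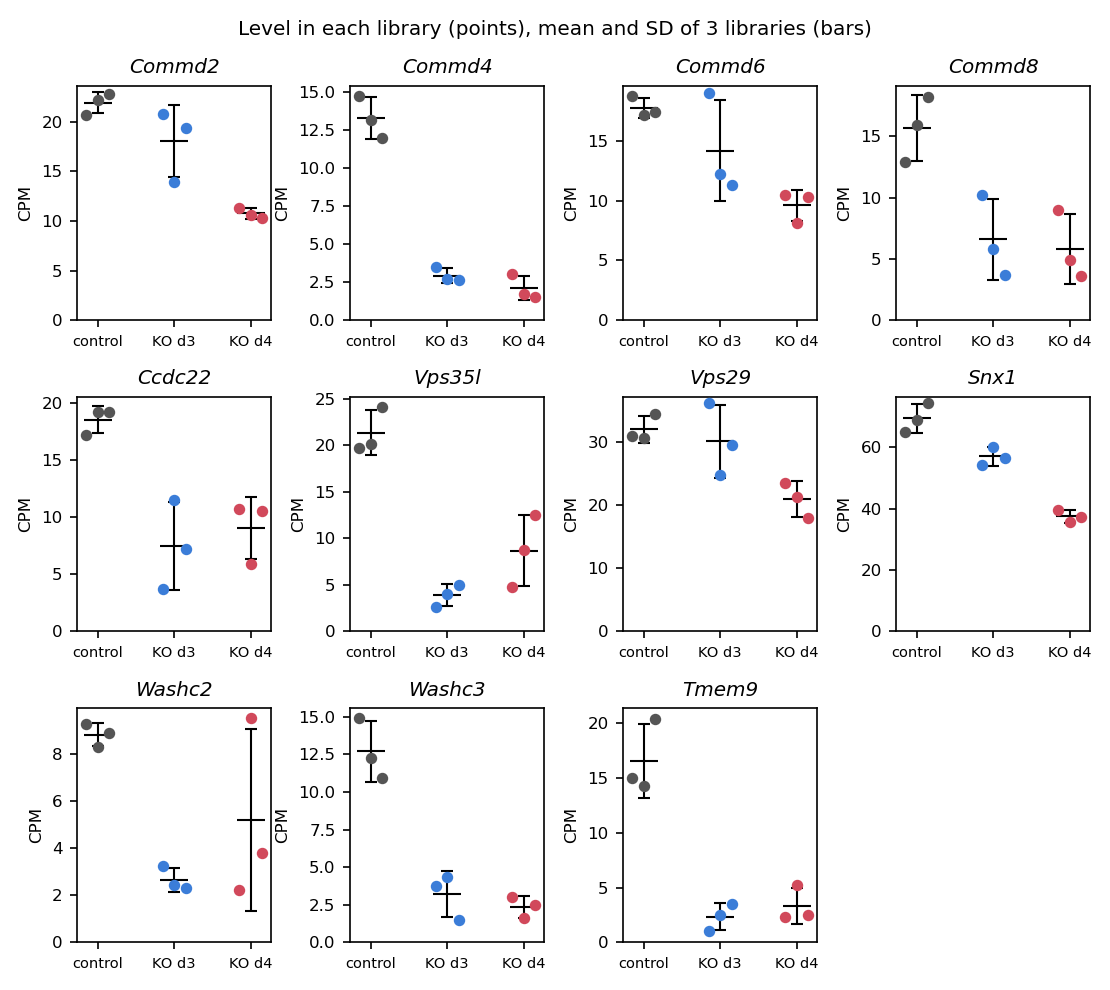
Level in CPM (y axis, from 0) of the 11 genes described library by library, in the control (grey), day 3 (blue) and day 4 (red) libraries; points are libraries, and the black marks are the mean and SD of 3 libraries. Commd4, Vps35l, Washc3 and Tmem9 are low at both times, Commd2 and Snx1 are lowest at day 4, and Washc2 has 1 day 4 library at 9.54 CPM, above all controls.

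Vps29 (ENSMUSG00000029462, chr5:122354369-122364984, plus strand), the small subunit that retromer and retriever share, stood at 30.9, 30.7 and 34.5 CPM in the controls, 36.2, 24.8 and 29.5 CPM at day 3 and 23.6, 21.3 and 17.9 CPM at day 4. Day 3 libraries spanned the control range and the day 4 libraries lay below it. Vps29 fell to 65.5% of control at day 4 (log2 fold change -0.61, SE 0.20, adjusted p = 0.0463); it was called under 9 of 19 alternatives, and leaving out any library other than day 3 replicate 1 ended the call, with an adjusted p of up to 0.138. The other retromer genes were not called: Vps35, Vps26a and Vps26b gave day 4 log2 fold changes of 0.22, 0.28 and -0.23 (adjusted p = 0.377, 0.348 and 0.417). Their control means were 69.4 ± 8.59 CPM, 38.0 ± 4.71 CPM and 26.6 ± 4.44 CPM. Of the alternative VPS26 subunits, reads of Vps26a per 100 reads of Vps26b were 148, 146 and 136 in the controls, 169, 132 and 198 at day 3 and 223, 182 and 205 at day 4. Day 4 libraries were all above the controls in that ratio, and day 3 libraries overlapped them.

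Among the sorting nexins, Snx1 (ENSMUSG00000032382, chr9:66088133-66126587, minus strand), a BAR-domain nexin that bends membrane into recycling tubules, stood at 65.1, 68.8 and 74.4 CPM in the controls, 54.3, 60.2 and 56.5 CPM at day 3 and 39.6, 35.6 and 37.2 CPM at day 4. The day 4 libraries formed a tight group below all others, and the day 3 libraries lay between them and the controls. Snx1 fell to 54.0% of control at day 4 (log2 fold change -0.89, SE 0.14, adjusted p = 0.00191), a call made under all 19 alternatives. Its paralog Snx2 went from 31.1 ± 2.93 CPM in the controls to 27.6 ± 4.68 CPM after 4 days and was not called (log2 fold change -0.17, SE 0.19, adjusted p = 0.549). Per 100 reads of Snx2, those of Snx1 numbered 228, 227 and 217 in the controls, 215, 185 and 182 at day 3 and 143, 156 and 115 at day 4, so every day 4 library was below every control in the ratio too.

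Snx5 and Snx6 are the partners of Snx1 and Snx2 in these tubules. Snx6 gave a log2 fold change of -0.54 (SE 0.19, adjusted p = 0.057) at day 4, with its 3 libraries below all controls, and Snx5 gave a log2 fold change of 0.21 (SE 0.15, adjusted p = 0.336); neither was called. Reads of Snx5 per 100 reads of Snx6 were 160, 194 and 180 in the controls, 208, 207 and 190 at day 3 and 244, 249 and 466 at day 4. The 3 day 4 values exceeded all others, with day 4 replicate 3 highest by far. Snx17, the adaptor that hands cargo to retriever, was at 57.8 ± 3.08 CPM, 45.9 ± 2.49 CPM and 39.5 ± 10.7 CPM in the 3 groups and missed the threshold at day 4 (log2 fold change -0.55, SE 0.19, adjusted p = 0.0593), though its libraries did not overlap the controls at either time. Snx3, which brings retromer to early endosomes, gave a log2 fold change of 0.37 (SE 0.16, adjusted p = 0.125), and Snx27, the PDZ-domain adaptor of retromer, gave a log2 fold change of -0.16 (SE 0.30, adjusted p = 0.749).

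**Figure D5:**
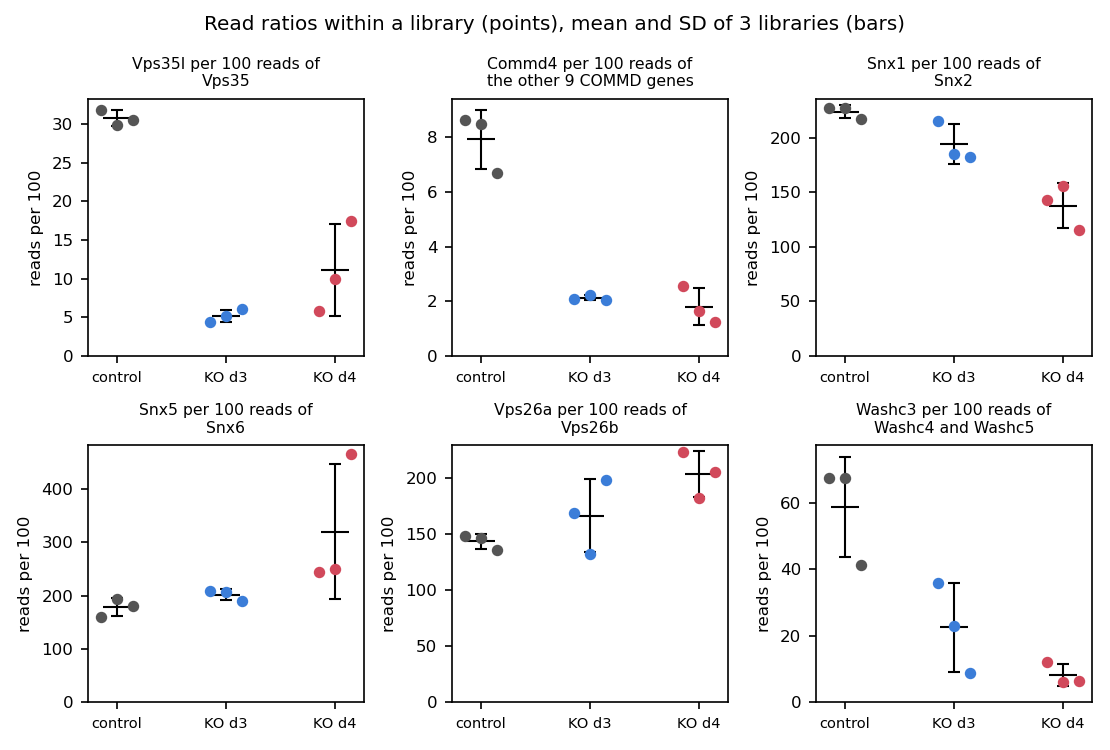
Reads of 1 gene per 100 reads of its paralog or partner genes within each library (y axes, from 0), in the 3 controls (grey), 3 day 3 libraries (blue) and 3 day 4 libraries (red), with the mean and SD of 3 libraries as black marks. Vps35l per Vps35, Commd4 per other COMMD genes and Washc3 per Washc4 and Washc5 are lower in every knockout library than in any control, while Snx5 per Snx6 and Vps26a per Vps26b are higher in every day 4 library.

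In WASH, Washc3 (ENSMUSG00000020056, chr10:88201093-88246158, plus strand), a small coiled-coil subunit, had the second largest fall of the set. It stood at 14.9, 12.3 and 10.9 CPM in the controls, 3.75, 4.38 and 1.49 CPM at day 3 and 3.05, 1.59 and 2.46 CPM at day 4. Knockout libraries at both times lay below every control. The fitted day 4 level was 18.8% of control (log2 fold change -2.41, SE 0.44, adjusted p = 0.00384; called under all 19 alternatives) from 10 to 26 counts per library, and the day 3 level was 25.1% of control. Its promoter is printed for comparison with that of Commd4 (GRCm38.p6, chr10:88200847-88201146, plus strand, start at base 251). Capitals mark CCAAT at bases 179 and 207 and CTTCCGG, the reverse complement of CCGGAAG, at base 290.
Washc3: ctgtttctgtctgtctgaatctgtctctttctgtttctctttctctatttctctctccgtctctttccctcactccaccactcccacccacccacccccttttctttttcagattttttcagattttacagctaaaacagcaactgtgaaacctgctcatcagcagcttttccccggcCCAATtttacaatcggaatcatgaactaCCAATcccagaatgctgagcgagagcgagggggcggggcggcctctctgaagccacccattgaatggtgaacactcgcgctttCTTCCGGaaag
Both windows thus hold CCAAT more than once and 1 match to the ETS motif CCGGAAG, and this window held 10 CG dinucleotides.

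Washc2 (ENSMUSG00000024104, chr6:116208038-116262686, plus strand), the long-tailed subunit that ties WASH to VPS35, stood at 9.28, 8.29 and 8.89 CPM in the controls, 3.24, 2.43 and 2.30 CPM at day 3 and 2.23, 9.54 and 3.81 CPM at day 4. All day 3 libraries were below the controls, but day 4 replicate 2 was above them. At day 4 it was not called (log2 fold change -0.77, SE 0.46, adjusted p = 0.249); without that library the log2 fold change was -1.59 and the adjusted p 0.0247. Washc4 and Washc5, the large scaffold subunits, gave day 4 log2 fold changes of 0.58 and 0.34 (adjusted p = 0.15 and 0.546), and Washc4 was above every control in each day 4 library. Per 100 reads of Washc4 and Washc5 together, those of Washc3 numbered 67.5, 67.5 and 41.5 in the controls, 35.8, 22.9 and 8.88 at day 3 and 12.0, 6.02 and 6.51 at day 4. Each knockout library was below each control, and the day 4 values were the lowest but for 1 day 3 library.

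Tmem9 (ENSMUSG00000026411, chr1:136008150-136035342, plus strand) stood at 14.9, 14.2 and 20.4 CPM in the controls, 1.02, 2.51 and 3.54 CPM at day 3 and 2.34, 5.25 and 2.46 CPM at day 4. No knockout library came near the controls. The fitted level was 14.7% of control at day 3 and 20.3% at day 4 (log2 fold change -2.30, SE 0.46, adjusted p = 0.00571; called under all 19 alternatives), from 11 to 33 counts per day 4 library against 385 to 454 in the controls. Its paralog Tmem9b, read outside the set, stood at 12.7, 12.9 and 13.7 CPM in the controls, 5.54, 4.86 and 5.88 CPM at day 3 and 5.16, 7.79 and 4.03 CPM at day 4 and fell as well (log2 fold change -1.20, SE 0.29, adjusted p = 0.0135). The RefSeq promoter of Tmem9 with the most upstream of its 3 starts is shown as that of the gene with the lowest day 3 level relative to control (GRCm38.p6, chr1:136007969-136008268, plus strand, start at base 251); capitals mark the 1 motif match, at base 72, which on the other strand reads CCAAT.
Tmem9: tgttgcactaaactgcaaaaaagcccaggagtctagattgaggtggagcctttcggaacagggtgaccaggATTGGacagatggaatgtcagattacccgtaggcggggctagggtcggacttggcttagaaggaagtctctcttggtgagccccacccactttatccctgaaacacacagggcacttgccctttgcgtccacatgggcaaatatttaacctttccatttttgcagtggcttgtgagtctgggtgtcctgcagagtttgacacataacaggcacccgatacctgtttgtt
This window held 6 CG dinucleotides. Rab7, the late endosomal GTPase, stood at 62.5 ± 10.9 CPM, 59.8 ± 21.8 CPM and 75.9 ± 8.86 CPM in the 3 groups and was not called at day 4 (log2 fold change 0.28, SE 0.25, adjusted p = 0.444).

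The RefSeq table held a promoter for 21 of the 30 genes, with the most upstream RefSeq start taken where a gene had several. These starts can differ from the GENCODE starts used for the neighbouring genes below. The windows of Snx1 (chr9:66124837-66125136, 10 CG) and Snx5 (chr2:144270523-144270822) do not reach the GENCODE starts at 66126587 and 144270906. CG dinucleotides numbered a median of 10 (6 to 26) in the 7 of these that were called lower at day 4 and 19 (14 to 51) in the other 14, against 21 in 9486 promoters of genes tested. The same count over all genes tested gave a median of 17 for 1203 promoters of genes called lower at day 4, 22 for 1073 called higher and 22 for 7210 not called; windows with fewer CG than the 14 of the lowest uncalled gene made up 36.7%, 31.0% and 23.6%. In all, 6 motifs were searched on both strands, and none is contained in another. They were the E-box CACGTG, which is the core of the CLEAR element of lysosomal genes, the ETS motif CCGGAAG and GCGCATGC, a part of the NRF1 site. The others were AAGATGGCG of YY1, the TATA box TATAAA and CCAAT, the NFY motif. The E-box CACGTG was in 8 of the 21 windows (38.1%), beside 10.4% of the promoters of genes tested and 7.15% of all 32851 in the table; 1 of the 7 called genes and 7 of the other 14 held it. CCAAT was in 5 of the 7 and 4 of the 14 (42.9% of the 21, beside 39.2% and 37.4%), and TATAAA in 0 of the 7 and 5 of the 14 (23.8%, beside 7.24% and 13.6%). CCGGAAG was in 23.8% (19.3% and 8.86%), AAGATGGCG in 4.76% (3.42% and 1.40%) and GCGCATGC in 0 of 21 (5.56% and 2.71%). These are matches of letters in a fixed window and were not tested.

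For 7 of the 30 genes a protein-coding gene starts within 1 kb on the other strand by GENCODE M21, a look-up made after the values were seen. In 4 of the 7 pairs 1 gene was called at day 4, in 3 neither (Vps35 with Orc6, Vps26b with Ncapd3 and Snx17 with Eif2b4) and in 0 both. Of all genes tested, 11.5% were called lower and 11.1% higher, so nothing is read from these few pairs. Snx1 starts 24 bases from Ciao2a, which gave -0.35 at day 4 (adjusted p = 0.12) while Snx1 gave -0.89. Snx5 starts 243 bases from Mgme1, which fell (-1.71, adjusted p = 0.0111) while Snx5 gave 0.21 and was not called. Washc5 starts 80 bases from Nsmce2, which fell (-0.82, adjusted p = 0.0272) while Washc5 gave 0.34. Vps29, which fell, starts 136 bases from Rad9b, which held at most 1.36 CPM in any library and gave -0.10 (adjusted p = 0.959). Exons of 3 pairs overlap on opposite strands: Snx5 with Mgme1 (206 bases), Vps35 with Orc6 (171) and Snx17 with Eif2b4 (204). Since strand use in the counting is not given, some reads of these pairs cannot be told apart. Whether the 2 genes of a pair differ was not tested.

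Between the 2 knockout times, 2 of the 30 genes were lower at day 4 than at day 3 and 0 higher, beside 6.03% and 6.52% of all genes tested (edgeR; 3 were higher at an unadjusted p under 0.05, DESeq2 called 2 higher and limma voom 0). This contrast uses the day 3 libraries that chose the set, so the values of Vps35l, Commd4 and Tmem9 in it are a description. Commd2 gave -0.74 (SE 0.22, adjusted p = 0.0455) and Snx1 -0.60 (SE 0.14, adjusted p = 0.0215). Snx1 was called under 16 of 19 alternatives and Commd2 under 4. The Commd2 call was lost without any single library other than day 3 replicate 2 and the Snx1 call without day 3 replicate 2 or day 4 replicate 2. Over the set the median was 0.00 (range -0.74 to 1.12), with Washc5 (1.10, adjusted p = 0.0805) and Vps35l at the upper end.

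The other genes of the pathway were read from 10 lists of 150 tested genes. At day 4, 23 fell (15.3%) and 17 rose (11.3%), beside 11.5% and 11.1% of all genes, with a median of -0.14. At day 3 edgeR called 0 of the 150; 37 were lower and 3 higher at an unadjusted p under 0.05, DESeq2 called 19 lower and 2 higher, and limma voom 32 and 2. Of the 7 tested genes that complete Commander, WASH and retromer, 1 fell: Washc1, the subunit that activates Arp2/3, at 19.4, 19.6 and 16.3 CPM in the controls, 7.93, 13.6 and 11.6 CPM at day 3 and 8.20, 6.36 and 2.91 CPM at day 4 (log2 fold change -1.63, SE 0.34, adjusted p = 0.00754). Every knockout library of Washc1 lay below every control. The retriever subunit Vps26c (log2 fold change -0.63, SE 0.23, adjusted p = 0.0667) and Dennd10 of Commander (log2 fold change -0.81, SE 0.48, adjusted p = 0.245) missed the threshold.

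Tethering complexes also held genes that fell, with counts to be read beside the 11.5% of all genes tested called lower at day 4. One list of 10 held HOPS and CORVET, which tether late and early endosomes, together with Vps33b and Vipas39, whose proteins form the separate CHEVI complex. Of these 10, 4 fell and 0 rose, among them Vps41 (log2 fold change -1.54, SE 0.34, adjusted p = 0.00897), Vipas39 (log2 fold change -1.01, SE 0.23, adjusted p = 0.0113) and Vps16 (log2 fold change -1.10, SE 0.26, adjusted p = 0.0118). In GARP and EARP, which tether carriers at the Golgi and recycling endosome, 2 of 6 fell, Vps51 (log2 fold change -0.91, SE 0.24, adjusted p = 0.0192) and Eipr1 (log2 fold change -1.35, SE 0.41, adjusted p = 0.0357). Of 19 further sorting nexins 1 fell, Snx11 (log2 fold change -1.51, SE 0.46, adjusted p = 0.0359).

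Of 23 genes that encode cargo of these routes, 6 fell and 0 rose at day 4 in mRNA level. Of all genes tested, 11.5% were called lower and 11.1% higher, and the difference was not tested. Slc1a5, a glutamine carrier returned to the surface, gave a log2 fold change of -1.43 (SE 0.20, adjusted p = 0.00115). Sort1, a Golgi sorting receptor, gave a log2 fold change of -1.11 (SE 0.16, adjusted p = 0.00112), and its relative Sorcs2 gave a log2 fold change of -1.61 (SE 0.25, adjusted p = 0.00155). Among 12 genes of enzymes that make or remove endosomal phosphoinositides, 3 fell and 1 rose. Pik3r4, a subunit of the kinase that makes PI3P, stood at 9.90, 10.8 and 9.61 CPM in the controls, 1.45, 3.64 and 3.79 CPM at day 3 and 1.64, 0.477 and 1.34 CPM at day 4 (log2 fold change -3.11, SE 0.51, adjusted p = 0.00211), with all knockouts below the controls. Fig4 gave a log2 fold change of -2.52 (SE 0.47, adjusted p = 0.00401), and Inpp4b, the gene that rose, gave a log2 fold change of 3.98 (SE 0.62, adjusted p = 0.00169).

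The genes that rose at day 4, 17 in all, belonged to other lists of the endosomal route, and their direction holds relative to TMM scaling: on library size alone, 2 of the 17 (Hgs and Inpp4b) stayed above 0. The counts by list are to be read beside the 11.1% of all genes tested called higher and the 11.5% called lower. Differences from those shares were not tested. Of 12 Arp2/3 and capping genes, the actin machinery that WASH acts on, 7 rose and 1 fell at day 4, with Arpc5 (log2 fold change 0.98, SE 0.16, adjusted p = 0.0019), Arpc1b (log2 fold change 0.93, SE 0.16, adjusted p = 0.00286) and Actr2 (log2 fold change 0.68, SE 0.16, adjusted p = 0.0126) named by smallest p. Of 28 ESCRT genes, which send cargo to the lysosome, 4 rose and 1 fell: Hgs rose most (log2 fold change 2.87, SE 0.28, adjusted p = 0.000238; GENCODE M21 gives this symbol to 2 overlapping IDs, 1 of which is in the table), Chmp2b rose (log2 fold change 0.88, SE 0.17, adjusted p = 0.00533) and Vps28 fell (log2 fold change -1.83, SE 0.23, adjusted p = 0.000594). Of 24 endosomal Rab genes and their partners, 5 rose and 3 fell, with Eea1 (log2 fold change 1.74, SE 0.30, adjusted p = 0.00286), Rab11b (log2 fold change 1.73, SE 0.32, adjusted p = 0.00409) and Rab14 (log2 fold change 0.65, SE 0.14, adjusted p = 0.00937) higher. Markers of Paneth, mast, tuft and other cell types were higher in the same day 4 libraries by the sums given above, and their part in these differences was not tested.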

How the data were processed

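The 30 genes, the other endosomal lists and the rules for naming genes were chosen with earlier results of these data known. Deposited values are raw counts per Ensembl gene for 9 libraries; reads were aligned with HISAT2 2.0.4 to GRCm38, per the submitters' processing notes, and the counting tool, its strand setting and its annotation are not given in the sources used here. GENCODE M21 gave names to 51933 of 57180 IDs, coordinates and merged exon lengths, and RefSeq (GRCm38.p6) the promoters.

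Counts were fitted with edgeR 4.0.16 in R 4.3.3 (low counts removed by filterByExpr with its minimums of 10 and 15, TMM scaling, glmQLFit and glmQLFTest, all 9 libraries in 1 fit, Benjamini-Hochberg over 13405 genes, threshold 0.05). The SE is the log2 fold change over the root of F. Genes described library by library were those called at day 4 and the 6 with the largest day 3 change of at least 1 CPM mean level; for the other lists up to 3 with the smallest adjusted p under 0.05 were named. Promoters were printed for Commd4 and Tmem9, which with Vps35l brought the set into view, and for Washc3, the other of the 2 largest called falls; matching was by symbol, and 2 genes on a chromosome not printed here were left out. Overlapping and neighbouring genes, Vps26c and Dennd10 were named after their values were seen. DESeq2 1.42.0, limma 3.58.1 voom, other scalings, filters and left-out libraries were alternatives, and the fits were checked on simulated counts. The simulated libraries shared 1 set of mean proportions apart from the changed genes. They held no shift in mitochondrial share, so they cannot check the TMM scaling at day 4.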

Additional observations from a re-analysis of the deposited data

Results flagged for a closer look

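Both genes that differed between the 2 knockout times are flagged because edgeR's test of that difference passed 0.05, while both groups are compared with the same controls: Commd2 at -0.74 and Snx1 at -0.60 (log2, day 4 against day 3, n = 3 libraries each; adjusted p = 0.0455 and 0.0215). All 3 day 4 libraries were below all 3 day 3 libraries for each. Stem cell marker sums, mostly Olfm4, were also lower at day 4, and their part was not tested.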

How the results depend on the processing

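Of the 11 genes described library by library, 5 (Commd2, Commd4, Snx1, Washc3 and Tmem9) were called lower at day 4 under all 19 alternatives, Vps35l under 16, Commd6 under 15, Commd8 under 13, Vps29 under 9, Ccdc22 under 8 and Washc2 under 2. Their 209 day 4 values kept direction in all cases, with 23 calls lost and 10 gained. The day 4 count of 9 was 8 to 13 under other tools, filters, RLE size factors, nuclear counts, 2-group fits and the summed overlapping genes. On library size alone it was 30, with a median of -2.33 (all genes -1.95). Leaving out 1 library at a time gave 5 to 12 calls. The cause of these shifts was not tested. The day 3 count of 3, which the choice of the set fixed and which tests nothing, was 7 on library size alone (median -0.66), 6 with no filter, with DESeq2 and without both libraries that stood apart, 8 with limma voom and 5 with only the 2 groups compared; leaving out 1 library gave 0 to 4, with 0 in edgeR without any 1 control or day 3 replicate 2 or 3 (7 to 10 genes at an unadjusted p under 0.05). The day 4 against day 3 count of 2 was 25 on library size alone (median -1.53, all genes -1.54), 1 with RLE size factors, no filter, limma voom and without both libraries that stood apart, 5 with DESeq2 and 0 with only the 2 groups (5 genes at an unadjusted p under 0.05); leaving out 1 library gave 0 to 2. Ccdc22 turned from 0.25 to -1.23 in that contrast on library size alone. With a replicate block the counts were 8 at day 4, 1 at day 3 (Vps35l, with Commd4 and Tmem9 lost) and 2 between the times. Between controls and day 3, same-numbered libraries correlated at 0.122, 0.0624 and 0.178 in their deviations from the group means. Differently numbered libraries of these groups correlated at -0.137 to -0.0124. Pairs with a day 4 library gave -0.06 to 0.022 with the same number and -0.0868 to 0.0949 with different numbers. Whether the numbers pair the libraries is not settled by these values. The 7 to 33 counts of Commd4, Washc3 and Tmem9 in a day 4 library limit the precision of their levels.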
